A study of Mus musculus with 32 samples.

Results

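Transcripts of 9 macrophage genes were followed across 32 mouse lymphomas: Csf1r, Mrc1 and Cd14, which encode receptors of the cell surface, C1qa, C1qb and C1qc, which encode the chains of complement C1q, Cd68 and Lyz2, which encode proteins of the lysosome and of secreted granules, and Lgals3, which encodes the lectin galectin-3. A gene was represented by the probe sets annotated to its symbol alone, which gave 13 of the 45101 probe sets on the array, and where a gene had several, the probe set with the highest mean over the tumours led. All 9 were bright enough to be kept among the 11227 genes tested. They were listed by symbol, with earlier results of these data known.

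The tumours were lymphomas of mice with the Eµ-myc transgene, in which an immunoglobulin heavy chain enhancer drives Myc in the B lineage, and each tumour was hybridised once to an Affymetrix Mouse430_2 array. All 32 belonged to a single group, with no treatment, no normal tissue and no age given in the labels. Tissue or dissociated cells served as the source of RNA, with no record of the choice made for each tumour, and the labels do not tell whether the tumours came from separate mice, so that p-values measure the spread between these samples. The values were log2 expression values normalised by the authors, and a level is compared here only between tumours for the same probe set.

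Macrophages take up dying cells and debris, and they depend on the growth factor receptor that Csf1r encodes. C1q is the recognition molecule of the classical complement pathway. Its A, B and C chains assemble with the proteases C1r and C1s, and tissue macrophages are a main source of C1q, whereas the liver makes most later components.

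The C1q chains are encoded side by side. In the RefSeq annotation of mouse assembly GRCm38.p6, C1qb, C1qc and C1qa followed each other on chromosome 4 within chr4:136880126-136898844, a span of 18719 bases, with gaps of 3600 and 2979 bases between them and 0 other genes in the span. Of the other members, Mrc1 lay at chr2:14229414-14332023, Lyz2 at chr10:117277541-117282272, Cd68 at chr11:69664213-69666170, Lgals3 at chr14:47373860-47386167. Lyz2 lay 5522 bases from Lyz1, its near-identical copy.

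Upstream sequences from RefSeq, also of GRCm38.p6, were searched for 6 of the members. C1qa had no entry, and Csf1r and Cd14 were left out of the search. The sequences are shown for the members whose 250 bases before the annotated start held GAGGAA. These letters are a form of the site recognised by PU.1, the transcription factor of the myeloid lineage encoded by Spi1. Shorter or other forms of that site were not searched. Each sequence is written 5′ to 3′ on the strand of its gene, and capitals mark GAGGAA or, on the opposite strand, TTCCTC. The windows were chr4:136886201-136886450 on the minus strand for C1qb, chr4:136892937-136893164 on the minus strand for C1qc (228 bases, since the rest of the window lay within the gene's own extent), chr11:69666171-69666420 on the minus strand for Cd68 and chr2:14229164-14229413 on the plus strand for Mrc1.
C1qb: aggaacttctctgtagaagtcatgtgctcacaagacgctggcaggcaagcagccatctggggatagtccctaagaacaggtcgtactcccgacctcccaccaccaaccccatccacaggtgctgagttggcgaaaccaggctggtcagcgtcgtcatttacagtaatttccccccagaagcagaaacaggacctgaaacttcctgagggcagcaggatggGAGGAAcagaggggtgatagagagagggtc
C1qc: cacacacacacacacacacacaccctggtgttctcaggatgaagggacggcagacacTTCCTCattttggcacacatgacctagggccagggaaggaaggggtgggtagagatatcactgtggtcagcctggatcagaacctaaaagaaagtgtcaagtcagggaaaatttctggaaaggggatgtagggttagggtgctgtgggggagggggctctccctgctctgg
Cd68: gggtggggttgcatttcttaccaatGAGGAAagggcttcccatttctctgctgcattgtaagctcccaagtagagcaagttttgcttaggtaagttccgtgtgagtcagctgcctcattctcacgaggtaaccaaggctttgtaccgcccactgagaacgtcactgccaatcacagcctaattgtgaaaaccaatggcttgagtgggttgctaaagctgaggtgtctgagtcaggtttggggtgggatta
Mrc1: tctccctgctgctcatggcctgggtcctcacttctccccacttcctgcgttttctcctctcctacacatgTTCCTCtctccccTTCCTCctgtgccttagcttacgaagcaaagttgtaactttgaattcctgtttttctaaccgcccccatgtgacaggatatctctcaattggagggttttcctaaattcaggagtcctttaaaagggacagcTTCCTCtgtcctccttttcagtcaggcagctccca
The letters occurred in 4 of 6 member windows, and 23.3% of 32851 mouse promoters held them in the same 250 bases. Mrc1 had 3 matches, and C1qb, C1qc and Cd68 had 1 each. The match in C1qb began 30 bases before the end of its window. Cd68 was the only member window with an AP-1 match (TGANTCA), which 6.75% of promoters held, or a C/EBP match (TTGCNNAA), which 9.56% held. Lgals3 and Lyz2 had no match to any of the 3 motifs. No motif overlapped another in these windows, both strands were searched, and a match describes letters and not a bound site.

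Among the receptors, Csf1r (probe set 1419872_at) ranged from 8.89 in tumour 14 through a median of 10.04 to 12.25 in tumour 24, a 10.3-fold range. Tumour 2 stood next at 12.02 and tumour 30 followed at 11.77, so 3 tumours held its top. Mrc1 (1450430_at), the mannose receptor of macrophages and of some endothelium, ranged from 5.27 in tumour 2 through 8.49 to 10.35 in tumour 30, a 33.8-fold range. Here the spread ran mainly downward: tumour 15 at 5.53 and tumour 8 at 6.08 were also far under the median, and tumour 25 at 9.94 came closest to tumour 30. Cd14 (1417268_at), the co-receptor that hands bacterial lipopolysaccharide to Toll-like receptor 4, ranged from 5.75 in tumour 26 through 6.50 to 11.92 in tumour 30. Tumour 30 alone made that 72.1-fold range, since tumour 10 came next at 8.07 and the SD of Cd14 was 1.06 with tumour 30 and 0.48 without it.

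The complement chains had similar spreads. C1qa (1417381_at) ranged from 8.98 in tumour 28 through 10.24 to 12.59 in tumour 24, C1qb (1417063_at) from 9.58 in tumour 28 through 10.73 to 12.89 in tumour 30, and C1qc (1449401_at) from 8.61 in tumour 28 through 9.76 to 12.04 in tumour 30. All 3 chains were lowest in tumour 28 and highest in tumours 24 and 30, and their SDs over the 32 tumours were 0.82, 0.78 and 0.76. Because these were bulk samples, fewer macrophages and less of these RNAs per macrophage cannot be told apart.

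Of the remaining members, Cd68 (1449164_at), a glycoprotein of macrophage lysosomes, ranged from 8.28 in tumour 28 through 9.62 to 11.81 in tumour 30. The other 31 tumours lay at or below 10.26. Lyz2 (1423547_at), the lysozyme of myeloid cells, ranged from 10.09 in tumour 29 through 11.76 to 13.71 in tumour 24, and Lgals3 (1426808_at) from 9.66 in tumour 17 through 10.94 to 12.86 in tumour 30. Lyz2 was high in tumours 24, 8, 2, 6 and 30, and Lgals3 in tumours 30, 24 and 10.

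**Figure D1:**
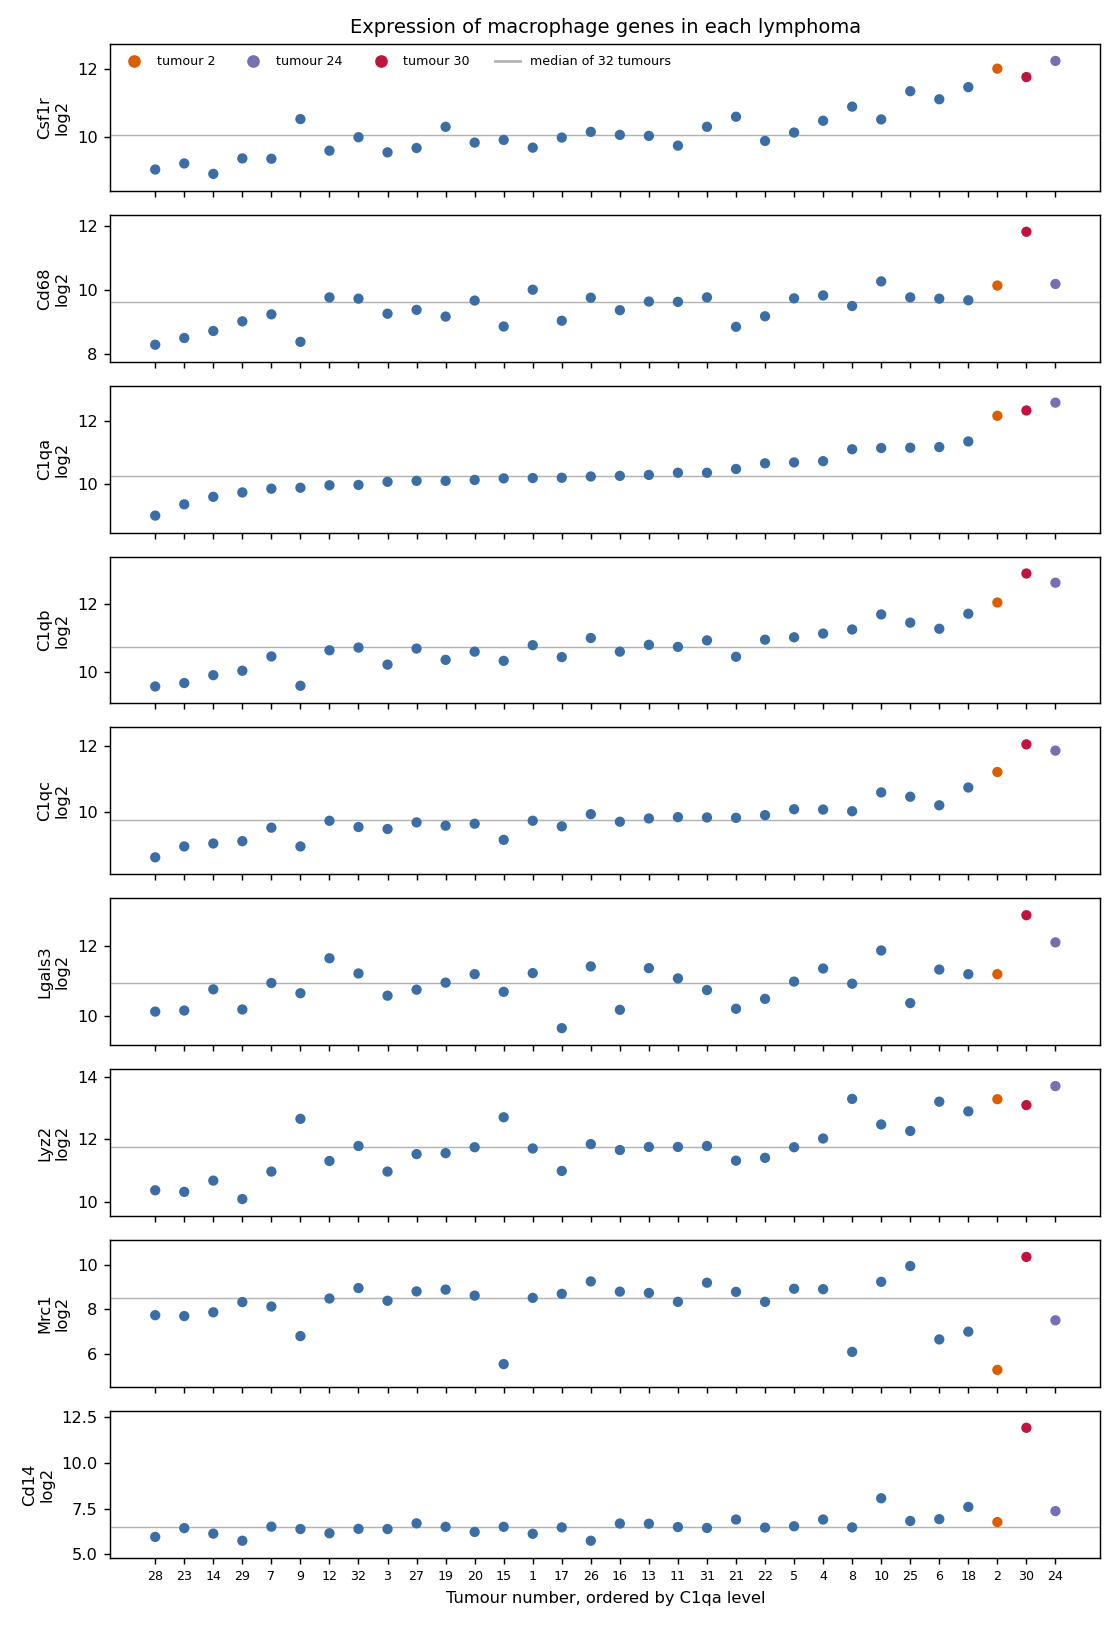
Log2 levels of the 9 genes' leading probe sets (vertical axes, 1 panel a gene) in each of 32 lymphomas. Tumours are ordered along the horizontal axis by C1qa, tumours 2, 24 and 30 are coloured, and a grey line marks each gene's median. Most panels rise from left to right, Cd14 rises too (rho = 0.76) with tumour 30 far above the rest, and Mrc1 has r = -0.09 with C1qa and is lowest in tumour 2.

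By SD, the members varied more than most genes on these arrays. Their SDs ran from 0.64 for Lgals3 to 1.16 for Mrc1, with a median of 0.82 against 0.28 over all 11227 genes. An SD above 1 was found for 2 of 9 members and for 3.38% of all genes. Estimated from the median absolute deviation, the SDs were 0.92 for Lyz2, 0.69 for Csf1r, 0.66 for Mrc1 and 0.57 for C1qa. They were 0.56 for Cd68 and C1qb, 0.55 for Lgals3, 0.40 for C1qc and 0.34 for Cd14. No such value over all genes is given. Tumour 30 was among the 5 highest in all 9 genes and highest in 6, tumour 24 was among the 5 highest in 8, and tumour 2 in 6, while tumour 28 was among the 5 lowest in 8 and tumours 14, 23 and 29 in 7 each.

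Where a gene had further probe sets, they ran together. The other Csf1r probe sets correlated with the leading probe set at r = 0.99 and 0.96, and those of C1qb at 0.95 and 0.96. Both bright probe sets of Lyz1 tracked Lyz2 at r = 0.99 and the dim one at 0.78. Those bright probe sets and both further ones of C1qb are of a design that can bind related transcripts. Signal of Lyz1 and Lyz2 cannot be told apart here.

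Levels of 8 of the 9 genes rose and fell together across the tumours, and Mrc1 did not join them. The C1q chains were the closest, with r = 0.98 between C1qb and C1qc, 0.96 between C1qa and C1qc and 0.95 between C1qa and C1qb (Spearman's rho 0.97, 0.95 and 0.91). Each of these had a two-sided permutation p of 1e-05, the smallest that 100000 resamples can give, and r was 0.92 to 0.97 once tumours 24 and 30, the 2 most distant in the first gene, were left out. Csf1r followed C1qa at r = 0.93 (rho 0.85, p = 1e-05) and Lyz2 at 0.87 (rho 0.85, p = 1e-05), and without tumours 2 and 24 these were 0.89 and 0.83.

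Over the 28 pairs without Mrc1, r ran from 0.47 to 0.98 with a median of 0.73, and rho from 0.30 to 0.97 with a median of 0.71. The permutation p of rho was under 0.05 in 27 of 28 pairs. The exception joined Lgals3 and Cd14, with r = 0.63 (p = 0.00042) but rho = 0.30 (p = 0.0908), and r = 0.41 without tumours 17 and 30. The pair of Cd68 and Cd14 likewise went from r = 0.72 to 0.39 without tumours 28 and 30. C1qa and Cd14 had r = 0.65, rho = 0.76 and r = 0.63 without tumours 24 and 30.

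**Figure D2:**
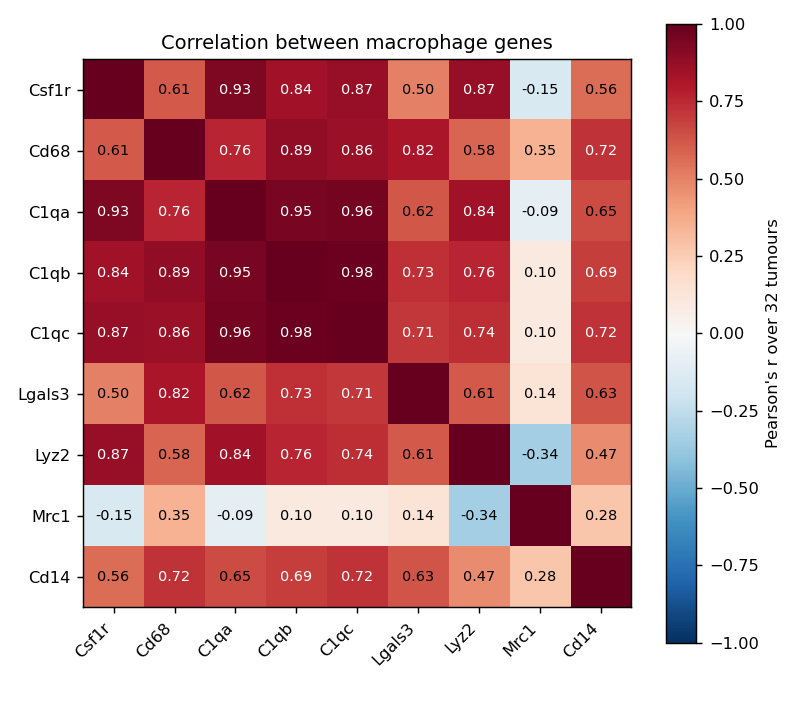
Pearson's r between the log2 levels of each pair of the 9 genes over 32 tumours (colour and printed value; red is positive). The 3 C1q chains form the darkest block, at 0.95 to 0.98, and Mrc1 is the pale line, between -0.34 and 0.35.

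Each member's level was then set against all other genes in limma, with p-values adjusted over all genes by the Benjamini-Hochberg method and called at 0.05. Of the 72 ordered pairs of members, 55 were called with a positive slope and 0 with a negative slope. Csf1r, Cd68, the 3 C1q chains, Lyz2 and Cd14 each called 7 of the other 8 members, Lgals3 called 6, with Csf1r missed at an adjusted p of 0.0669, and Mrc1 called 0 of 8 (2 at an unadjusted p under 0.05, Cd68 and Lyz2). The share of all genes called in the positive direction was 14.8% on Csf1r, 4.45% on Cd68, 13.3% on C1qa, 9.09% on C1qb, 11% on C1qc, 2.22% on Lgals3, 12.4% on Lyz2, 2.08% on Mrc1 and 7.82% on Cd14. Single tumours mattered for the looser pairs: the count was 46 without tumour 30 and between 46 and 56 over the 32 settings that each left out a tumour. These are positive slopes. Without tumour 30, Mrc1 was also called with a negative slope on Lyz2 (r = -0.47, adjusted p = 0.0315), the 1 negative call in these settings.

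Leaving out tumours 2, 24 and 30 together, a choice made after seeing the data, left 38 of the 72 ordered pairs called, against 55 in all tumours. Among the 8 genes other than Mrc1, r then ran from 0.23 to 0.97 with a median of 0.66. C1qa, C1qb, C1qc and Lyz2 still called 6 members each, whereas Lgals3 called 1. In these 29 tumours 3.31% of all genes were called with a positive slope on C1qa and 0.0267% on Lgals3. In the tumours with salivary gland transcripts (11, with high Bpifa2, a salivary secretory protein) the median r over all 36 pairs was 0.73, and in the other 21 it was 0.68. The r of Mrc1 took opposite signs in these subsets for several members: with C1qa it was 0.48 in the 11 and -0.45 in the 21, with C1qc 0.61 and -0.31, with Csf1r 0.31 and -0.46, and with Cd68 0.71 and -0.04. Tumour 30 was among the 11, and the difference between the subsets was not tested.

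**Figure D3:**
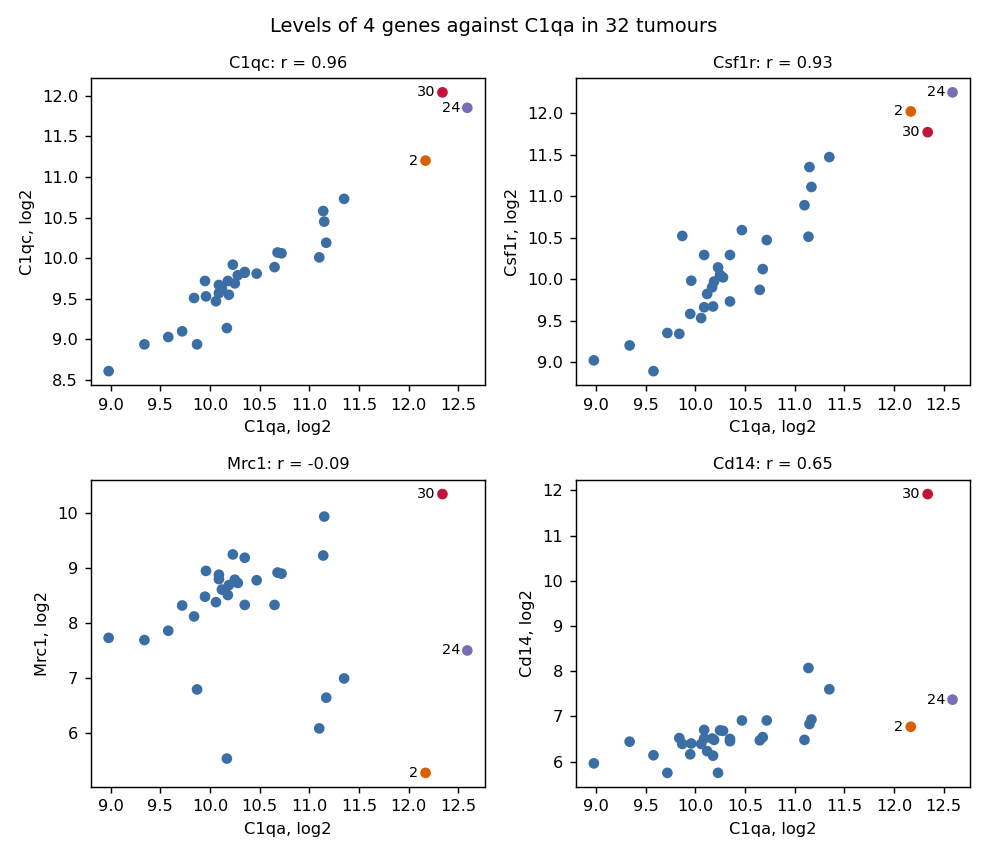
Log2 level of C1qc, Csf1r, Mrc1 and Cd14 (vertical axes) against the log2 level of C1qa (horizontal axis), 1 point a tumour, n = 32, with tumours 2, 24 and 30 labelled. C1qc and Csf1r rise with C1qa (r = 0.96 and 0.93), Cd14 has r = 0.65 with tumour 30 far above the rest, and Mrc1 has r = -0.09.

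Mrc1 had r between -0.34 (Lyz2) and 0.35 (Cd68) with the other members. Tumour 2, among the 3 highest in C1qa and in Lyz2, had the lowest Mrc1 of all, and tumour 30, second highest in C1qa, had the highest. Tumours 24, 18, 6 and 8, all among the 8 highest in C1qa, had Mrc1 levels of 7.50, 6.99, 6.64 and 6.08, under its median of 8.49. Tumours 25 and 10, also among these 8, had 9.94 and 9.23.

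The slopes of each gene on Mrc1 and on C1qa were compared in 1 limma model that held both, a test chosen after these values were seen. Since the r values above had already set the axes apart for these members, its p-values add no separate evidence. The slope on C1qa was the larger for all 7 remaining members, and the difference was called for 5 of them. Over all genes 12.3% were called in that direction and 14.7% in the other. In log2 units per SD of the axis, Lyz2 had a slope of 0.75 on C1qa and -0.25 on Mrc1, a difference called at an adjusted p of 4.5e-08. Csf1r differed by -0.85 ± 0.07 (SE, adjusted p = 9.04e-10), C1qb by -0.61 ± 0.05, C1qc by -0.60 ± 0.04 and Cd68 by -0.25 ± 0.08 (adjusted p = 0.0213, and 0.339 without tumours 2, 24 and 30). The differences for Lgals3 (-0.29 ± 0.12, adjusted p = 0.0733) and Cd14 (-0.36 ± 0.18, adjusted p = 0.126) were not called, although that of Cd14 was called without these tumours (adjusted p = 0.0161).

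The genes most like each member, by Pearson's r over the 32 tumours, are given next. For C1qa they were Tyrobp (r = 0.96), an adaptor of myeloid receptors, Mpeg1 (0.94), a pore-forming protein of macrophages, Fam234a (0.93), Aif1 (0.92), the macrophage marker also called Iba1, and Acp2 (0.92), a lysosomal phosphatase. C1qb was closest to Fcer1g (0.95), the signalling chain of Fc receptors, Tyrobp (0.94) and Ms4a7 (0.93), and C1qc to Fcer1g (0.95), Tyrobp (0.95) and the endosomal RNA receptor Tlr7 (0.93). For Csf1r the closest were Tbc1d2b (0.94), Fam234a (0.93), Aif1 (0.91), App (0.91) and Ninj1 (0.90). All of these genes were still called in the 29 tumours without 2, 24 and 30, where Tyrobp had r = 0.91 with C1qa and Tbc1d2b had 0.89 with Csf1r.

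Cd68 was closest to the lysosomal nuclease Pld3 (0.92), to Ms4a7 (0.90) and to Ttyh2 (0.89), and Lyz2 to Lyz1 (0.99), to the galectin-binding glycoprotein Lgals3bp (0.92) and to Fam234a (0.91). Lgals3 was closest to Rab7b (0.85), the lysosomal protease Ctsd (0.83) and Cln8 (0.78), with r = 0.72, 0.72 and 0.59 without tumours 2, 24 and 30, where Cln8 was no longer called (adjusted p = 0.225). For Cd14 the closest were Mir22hg (0.87), Dnah2 (0.86) and the cadherin Cdh13 (0.84). Without the 3 tumours these had r = 0.66, 0.19 and 0.41, and Dnah2 and Cdh13 were no longer called (adjusted p = 0.71 and 0.316).

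Mrc1 had other neighbours. They were Adgre1 (r = 0.88, adjusted p = 5.27e-08), which encodes an adhesion receptor long used to mark mouse macrophages, the collagen gene Col3a1 (0.86) and Fcna (0.85), which encodes a ficolin of the lectin pathway of complement. Without tumours 2, 24 and 30 the same genes had r = 0.89, 0.84 and 0.85. Adgre1 had r = 0.31 with C1qa (adjusted p = 0.17). All were picked for their likeness to Mrc1, so no test of Mrc1 against C1qa is given for them.

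Complement genes outside C1q followed C1qa in part. Of 13 tested genes of the cascade and its receptors, 9 rose with C1qa and 0 fell, against 13.3% and 15.2% of all genes, and their median r was 0.68 against -0.08 over all genes. Cfp, properdin of the alternative pathway, had r = 0.91 (adjusted p = 1.28e-10), C1ra and C1s1, the proteases that pair with C1q, 0.77 each, C2 and Cfb, the convertase proteases, 0.72 each, and Serping1, the inhibitor of C1r and C1s, 0.71. The integrin chain Itgax had r = 0.68, and Calr and its partner Lrp1, which take part in the uptake of C1q-coated cells, had 0.48 and 0.46. The C5b-binding component C6 (-0.13), the complement regulator Cd55 (-0.20), the receptor C3ar1 (0.21) and Cd93 (-0.09) were not called. Without tumours 2, 24 and 30, 4 of the 13 were called, Cfp (r = 0.83), C1ra (0.57), Cfb (0.56) and C1s1 (0.53), against 3.31% of all genes.

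On Mrc1, C3ar1 (r = 0.73) and Lrp1 (0.70) rose and Itgax fell (r = -0.58), against 2.08% and 2.01% of all genes. The values on C1qa are given above, and no test of the difference is given for genes taken from these calls.

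The macrophage label was checked against identity genes other than the members. Of 30 tested, 22 rose with C1qa and 1 fell, against 13.3% and 15.2% of all genes, with a median r of 0.62. Tyrobp and Mpeg1 headed the list. At its other end stood Siglec1 (r = -0.50, adjusted p = 0.0348), a sialic acid receptor whose probe set varied little (SD 0.12), and the iron exporter Slc40a1 (r = 0.09). Cd163, Vsig4, Arg1 and Nos2 were dim on average and not tested. In the 29 tumours, 15 of 30 were called, all with a positive slope, against 3.31% of all genes.

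On Mrc1, 4 of the 30 identity genes rose and 2 fell, against 2.08% and 2.01% of all genes, and the median r was 0.18. Without tumours 2, 24 and 30, 8 rose and 2 fell, against 2.34% and 2.17% of all genes. The 6 called over all tumours are named after their values were seen. Adgre1 (r = 0.88), Slc40a1 (0.81), the lipid receptor Trem2 (0.72) and the folate receptor Folr2 (0.67) rose, whereas the apoptotic cell receptor Timd4 (-0.67) and Nr1h3 (-0.60), the nuclear receptor LXR alpha, fell. Of the genes that rose with Mrc1, none was called on C1qa, with r = 0.31, 0.09, 0.18 and 0.21 and adjusted p = 0.17, 0.737, 0.465 and 0.376. Timd4 and Nr1h3 rose with C1qa (r = 0.46 and 0.66). Since these genes were taken for their calls on Mrc1, no test of the difference between the axes is given.

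Lysosomal genes went with C1qa: 11 of 13 rose, led by the proteases Ctsd (r = 0.89) and Ctsb (0.88), and Npc2 (0.38) and Hexa (0.40) were not called. On Mrc1, limma called 0 of these 13, and 2 had an unadjusted p under 0.05. Among 7 partners of Csf1r and Cd14 in signalling, 4 rose with C1qa. Ly96, the partner of Toll-like receptor 4 also called MD-2, had r = 0.81, the adaptor Myd88 0.71, Tlr2 0.59 and Csf1, a ligand of Csf1r, 0.53, while Irak3 (-0.03), Tirap (-0.40) and Lbp (0.21) were not called. The counts were 8 of 13 and 3 of 7 without tumours 2, 24 and 30. Of all genes 13.3% rose with C1qa over all tumours, and 3.31% without these 3.

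Other myeloid lists gave fewer calls on C1qa, on which 13.3% of all genes rose and 15.2% fell. Without tumours 2, 24 and 30 these shares were 3.31% and 1.13%. Single calls in lists this short are near the share of all genes. Of 6 monocyte genes 1 rose, the chemokine receptor Ccr2 (r = 0.58), and Cx3cr1 (0.39), F13a1 (0.10) and Plac8 (0.05) were not called. Of 5 dendritic cell genes 1 rose, the transcription factor Batf3 (0.68), with Bst2 at 0.28, Ccl22 at 0.02 and Ccr7 at -0.38. Neither call was made without tumours 2, 24 and 30. Of 7 neutrophil genes, limma called 0 (0 at an unadjusted p under 0.05), from Mpo (-0.15) and Ltf (-0.11) to S100a9 (0.12) and Mmp9 (0.26), although in the 29 tumours 1 was called.

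**Figure D4:**
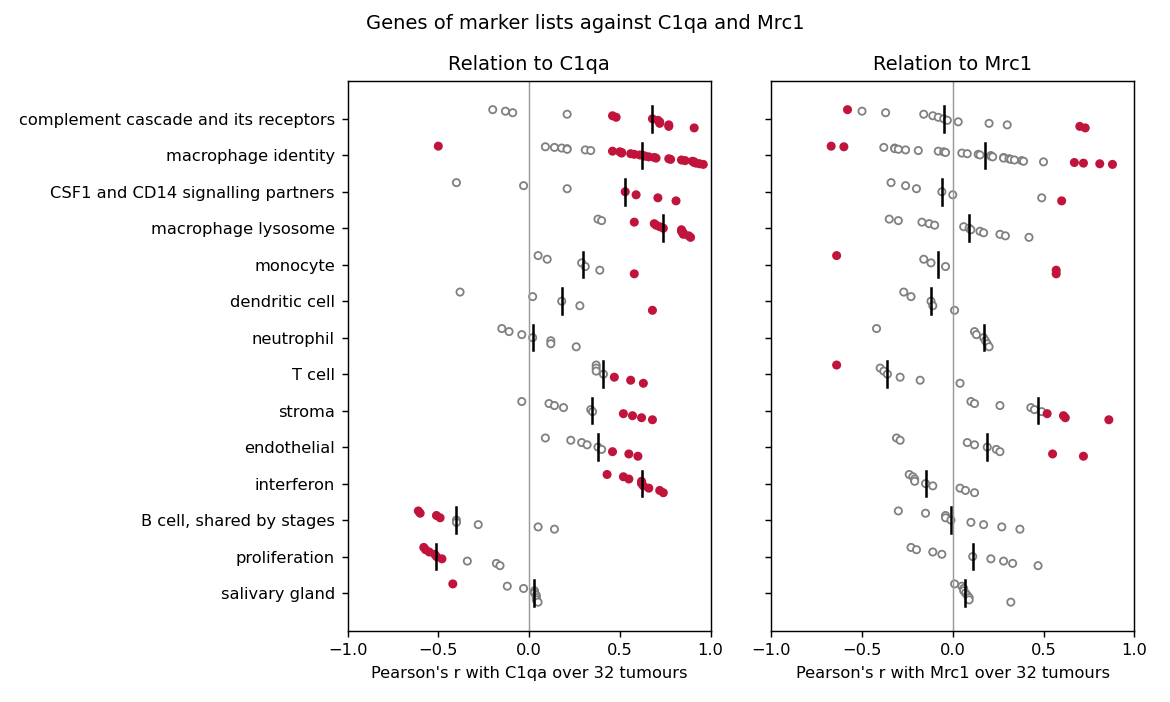
Pearson's r over 32 tumours of each tested gene of 14 marker lists with C1qa (left) and with Mrc1 (right); filled red points had a limma adjusted p under 0.05, open points did not, and a black bar marks the list's median. The complement, macrophage identity and lysosome lists sit to the right with C1qa (medians 0.68, 0.62 and 0.74) and near 0 with Mrc1 (-0.05, 0.18 and 0.09).

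The members were next set against scores of other cells and programmes, each the mean standardised level of the list's tested genes. On the T cell score 4 of 9 members rose, Csf1r (r = 0.59, adjusted p = 0.00333), C1qa (0.51), Lyz2 (0.47) and C1qc (0.43), against 10.4% of all genes. Tumours 24 and 2 had the T cell scores 3.08 and 2.43, farthest of all from the median, and without them the r values of these 4 genes were 0.23, 0.02, 0.16 and -0.08. Without tumour 24 alone, limma called 0 members (2 at an unadjusted p under 0.05), and without tumour 2 alone it called 1. Without tumour 15, Mrc1 fell with this score (r = -0.44, adjusted p = 0.0448), and the call of C1qc was lost in 21 of the 32 settings that left out a tumour. Of the 7 T cell genes 3 rose with C1qa, against 13.3% of all genes. They were Cd4 (r = 0.63), which mouse macrophages can also carry, Icos (0.56) and Cd3e (0.47). Cd3g, Lat and Thy1 had 0.37 each and were not called. In the 29 tumours without 2, 24 and 30, limma called 0 of the 7 (1 at an unadjusted p under 0.05).

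On the stroma score 2 members rose, Cd68 (r = 0.56, adjusted p = 0.0172) and Mrc1 (r = 0.55, rho = 0.65, adjusted p = 0.0184), against 4.48% of all genes. At an unadjusted p under 0.05 limma had 7 of 9 members, and r ran from 0.31 to 0.56 over the 9. Tumours 25 and 30 had the most distant stroma scores, and without them r was 0.40 for Cd68 and 0.39 for Mrc1. Without tumour 30, limma called 0 members (3 at an unadjusted p under 0.05), whereas it called 7 without tumour 18, 5 without tumour 24 and 4 without tumour 26. In the 29 tumours without 2, 24 and 30, Mrc1 was the 1 member called. Of 10 stroma genes, 4 rose with C1qa and 4 with Mrc1, against 13.3% and 2.08% of all genes. On C1qa, Bgn (0.68) and Col6a1 (0.62) led, with Col3a1 at -0.04 and Lum at 0.11. In the 29 tumours the counts of stroma genes were 1 and 3, against 3.31% and 2.34% of all genes. Of 2 fat cell genes, Fabp4 rose with Mrc1 (r = 0.65, adjusted p = 0.00382) and had r = 0.15 with C1qa, and Adipoq had -0.17 with C1qa; limma called 0 of the 2 on C1qa (0 at an unadjusted p under 0.05).

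On the endothelial score 4 members rose, Csf1r (r = 0.56, rho = 0.66, adjusted p = 0.0112), Cd14 (0.55, rho = 0.59), Lyz2 (0.51) and C1qa (0.46, adjusted p = 0.0482), against 6.96% of all genes. At an unadjusted p under 0.05 limma had 7 of 9 members. Tumours 30 and 25 again had the highest scores, 1.86 and 1.75. Without them r was 0.43 for Csf1r, 0.42 for Cd14, 0.48 for Lyz2 and 0.30 for C1qa. Without tumour 30 limma called 0 members (4 at an unadjusted p under 0.05), without tumour 29 it called 2 and without tumour 9 it called 7. The call of C1qa was lost in 23 of the 32 settings that left out a tumour. Of 9 endothelial genes 3 rose with C1qa, against 13.3% of all genes, among them Cdh5 (0.60) and Plvap (0.55). Tek (0.09) and Egfl7 (0.23) were not called. In the 29 tumours 1 endothelial gene rose, against 3.31% of all genes.

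The interferon score split the tumours, with 2, 10 and 24 set apart at its top, and was tested in the other 29. There limma called 0 of 9 members (4 at an unadjusted p under 0.05) and 0.143% of all genes, with r from 0.11 for Cd14 to 0.43 for Lyz2. Over all 32 tumours 9 of 9 interferon-induced genes rose with C1qa, from Irf9 (r = 0.43) and Usp18 (0.52) to Ifit2 (0.72) and the chemokine Cxcl10 (0.74). In the tumours other than 2, 24 and 30 the count was 2 of 9 (7 at an unadjusted p under 0.05, limma), with a median r of 0.49. The shares of all genes that rose with C1qa were 13.3% and 3.31%. The neutrophil score called 0 members in limma (0 at an unadjusted p under 0.05) and 0.0446% of all genes, with r between -0.03 and 0.12.

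Most members were lower where B cell and cell cycle transcripts were higher, and the calls depended on a few tumours. On the score of B cell genes, 5 members fell, C1qc (r = -0.59, adjusted p = 0.0103), C1qa (-0.56), C1qb (-0.53), Lgals3 (-0.50) and Csf1r (-0.48), against 4.7% of all genes. At an unadjusted p under 0.05 limma had 8 of 9 members. Tumour 24 had the lowest B cell score, -1.86, and without it limma called 0 members (6 at an unadjusted p under 0.05). It called 1 without tumour 2, 3 without tumour 23, 28, 29 or 30, and 7 without tumour 25. Without tumours 24 and 25, the most distant in this score, r was -0.57 for C1qc, -0.53 for C1qa and -0.50 for C1qb. It was -0.38 for Lgals3 and -0.48 for Csf1r. Without tumours 2, 24 and 30, r of the members ran from -0.29 to -0.06. Of 9 B cell genes 4 fell with C1qa, against 15.2% of all genes, led by Cd79a (-0.61) and Btk (-0.60). Blnk (0.05) and Blk (0.14) were not called. In the 29 tumours limma called 0 of the 9 (1 at an unadjusted p under 0.05). The call of Csf1r on the B cell score was lost in 20 of the 32 settings that left out a tumour.

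On the proliferation score all members but Mrc1 fell, 8 of 9, against 9.89% of all genes. Without tumour 30, 5 fell, the calls of C1qb, Cd68 and Lgals3 were lost (adjusted p = 0.0618, 0.69 and 0.472), and Mrc1 rose (r = 0.46, adjusted p = 0.0464). Cd14 had r = -0.71 (adjusted p = 0.000107), C1qa and C1qc -0.66, Csf1r -0.64, C1qb -0.60, Lyz2 -0.50, and Cd68 and Lgals3 -0.46. The rank correlations were smaller, with rho = -0.36 for Cd14, -0.34 for C1qa and -0.09 for Cd68. Tumour 30 had the lowest score, -2.20, followed by tumour 18 at -1.31, and without both of them r was -0.34 for Cd14, -0.53 for C1qa and -0.09 for Cd68. With tumours 2, 24 and 30 left out, limma called 0 of 9 members (4 at an unadjusted p under 0.05) and 1.63% of all genes in this direction. Of 9 proliferation genes 6 fell with C1qa, against 15.2% of all genes, led by Mcm2 (-0.58) and Top2a (-0.57). Cdc20 (-0.18) and Aurka (-0.16) were not called. In the 29 tumours limma called 0 of these 9 genes (1 at an unadjusted p under 0.05).

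**Figure D5:**
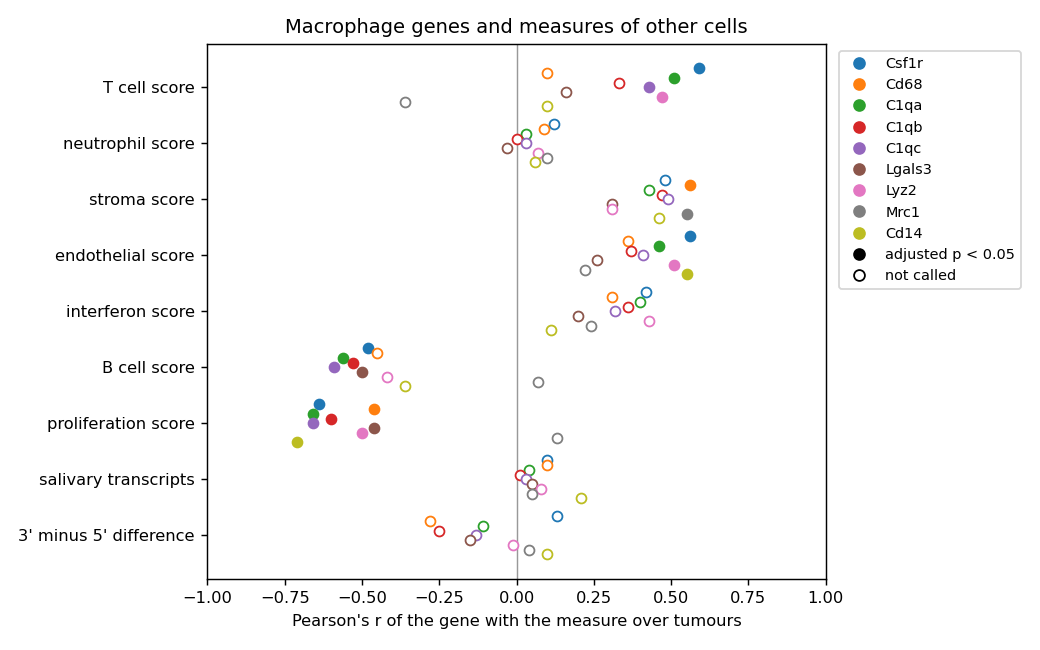
Pearson's r of each of the 9 genes (colours) with 7 marker scores, with the presence of salivary transcripts and with the 3′ minus 5′ difference of the array's controls (vertical axis); filled points had a limma adjusted p under 0.05, open points did not, n = 32 tumours and 29 for the interferon score. The B cell and proliferation scores sit to the left of 0 for 8 of 9 genes, and Mrc1 alone lies at 0.07 and 0.13.

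No member was called between tumours with and without salivary transcripts. Csf1r averaged 10.35 ± 0.85 (SD) in the 11 tumours with them and 10.17 ± 0.87 in the 21 without, and C1qa 10.52 ± 0.80 and 10.45 ± 0.85. Cd14 had the widest difference, 7.04 ± 1.69 against 6.58 ± 0.49, and tumour 30 was among the 11. Limma called 0 members (0 at an unadjusted p under 0.05) and 0.0981% of all genes. Among 9 salivary genes 1 fell with C1qa, Bhlha15 (r = -0.42, adjusted p = 0.0471), against 15.2% of all genes. Aqp5 had r = -0.12, Smr3a 0.04 and Amy1 0.05.

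Array quality had no called relation to the members. The gap between 3′ and 5′ signal of the array's controls for Gapdh and Actb, a sign of RNA quality, ranged from 0.26 to 0.96, and limma called 0 members on it (0 at an unadjusted p under 0.05) and 1.16% of all genes, with r between -0.28 and 0.13. Array medians lay between 5.72 and 5.80, 18 hybridisation controls had SDs of 0.07 to 0.22, and no arrays were identical (0 pairs). Of 6 tested reference genes B2m rose (r = 0.71) and Hprt fell (r = -0.58) with C1qa, against 13.3% and 15.2% of all genes. Tbp had r = -0.39 and Actb 0.27. None of 6 listed erythroid genes was bright enough or had a probe set of its own (0 tested).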

How the data were processed

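Total RNA of 32 Eµ-myc lymphomas was measured on Affymetrix Mouse430_2 arrays, and the deposited values are log2 expression values that the authors obtained by RMA in affy, per the submitters' processing notes, with no versions stated. Probe sets were named from the platform's annotation: 34958 of 45101 had 1 symbol, 932 several and 9211 none, and only the first kind was used. For each gene the probe set with the highest mean was kept if that mean reached 5.78, the median over probe sets. No depth applies to arrays; the number of tumours limits the precision.

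Relations across tumours were tested in R 4.3.3 with the package limma 3.58.1 (functions lmFit and eBayes; p adjusted over all genes after Benjamini and Hochberg, called at 0.05), with the level of a member or a list's score as the axis. Where a gap of 25% or more of the range split an axis, with 3 or more tumours on either side, its larger side was tested. Pearson's r and Spearman's rho had two-sided permutation tests of 100000 resamples (numpy 2.4.6, ranks from scipy 1.17.1). These covered 36 pairs of members and 72 pairs of a member with a score or with the 3′ minus 5′ difference. On simulated data the fit recovered 98.5% of 200 genes with a slope of 1 SD among 11227 and 5% at 0.5 SD.

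Named genes were all members and the genes outside the members most like each by r. These were 5 for Csf1r, 5 for C1qa and 3 for each other member. Also named were the 2 highest and 2 lowest genes of each list by r to C1qa. So were the complement genes called on C1qa and genes that define an axis. The few others were named to fill out a small count after their values were seen. The members and the lists were chosen with earlier results of these data known. Alternatives covered probe set choice, filter, normalisation, ranks, covariates and left-out tumours.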

Additional observations from a re-analysis of the deposited data

How the results depend on the processing

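The count of called pairs of members stayed within 1.5 times of 55 in every setting run: 46 to 56 when 1 tumour was left out, 38 without tumours 2, 24 and 30 (a setting chosen after seeing the data), 52 with the mean of the T cell, neutrophil and stroma scores as a covariate, and 41 of 56 when only genes above the 75th percentile of means were kept, which drops Cd14. With the axis as ranks, 0 members were called on the T cell score, 1 on stroma, 0 on B cell and 2 on proliferation (2, 6, 8 and 6 at an unadjusted p under 0.05, limma). With the 3′ minus 5′ difference as a covariate, 4 were called on stroma and 7 on endothelial. Without tumours 2 and 24 the counts were 0 on T cell, 5 on stroma, 0 on B cell and 5 on proliferation (0, 7, 4 and 8 unadjusted). Without tumours 2, 24 and 30 they were 0 on T cell, 1 on stroma, 2 on endothelial, 0 on B cell and 0 on proliferation (0, 4, 4, 0 and 4 unadjusted). Leaving out 1 tumour gave 0 to 5 on T cell, 0 to 7 on stroma, 0 to 7 on endothelial, 0 to 7 on B cell, 6 to 8 on proliferation, and 0 on the neutrophil and interferon scores, the salivary split and the 3′ minus 5′ difference. These counts join both directions: the 6 on proliferation, without tumour 30, were 5 falling and Mrc1 rising, and without tumour 15 the 4 on T cell were 3 rising and Mrc1 falling. The count of pairs without tumour 30 leaves out 1 negative call, of Mrc1 on Lyz2. The cause of these shifts was not tested. The T cell and interferon scores had too few bright genes for a value at the 75th percentile. Shifting arrays by reference genes (-0.17 to 0.12) turned no direction among these counts. No paired analysis was possible because the tumours form a single group.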
